A study of Homo sapiens with 8 samples.

Results

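The genes described here are markers used to recognise cholangiocytes, the cells that line bile ducts, and liver progenitor cells, in HepG2 cells with and without forced expression of the epithelial transcription factor GRHL2. They were chosen by symbol, as rows of the expression table whose gene is one of 9 listed membrane or secreted markers, and 8 of the 9 had a row among the 17561 genes of the table: EPCAM, CD24, PROM1, SPP1, CFTR, MUC1, ANXA4 and BICC1. AQP1 was not analysed here. The description as membrane or secreted markers holds for most of them but not for BICC1, an RNA-binding protein of the cytoplasm, and only loosely for ANXA4, a cytosolic protein that attaches to membranes when calcium rises. EPCAM, PROM1, SPP1, CFTR and MUC1 also stand on the study's list of epithelial-lineage genes, named Epith-Signature, and EPCAM on its list of cholangiocyte-enriched genes.

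Cholangiocytes form a polarized epithelium that faces the bile with an apical membrane rich in channels, mucins and other glycoproteins, and they modify bile by secreting chloride, bicarbonate and water. Adult hepatocytes carry little of this surface program, whereas embryonic hepatoblasts, cells of the ductular reaction and many liver tumour cells share parts of it, so several of these genes serve as markers of both duct cells and bipotent progenitors. GRHL2 is a grainyhead-family transcription factor that directs epithelial adhesion and polarity genes.

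HepG2 is a human liver tumour cell line that keeps the expression of many hepatocyte genes. One group of 4 libraries came from cells transfected with the plasmid pGRHL2, which encodes a flag-tagged GRHL2, and the other 4 from cells that received pcDNA3, the control vector. RNA was harvested 48 h after transfection in both groups, from cells kept in the same William's E medium with serum, insulin and dexamethasone on gelatin. By the study's methods the GRHL2 plasmid carries the EEF1A1 promoter and also expresses EGFP, so the plasmids differ in more than GRHL2. Transfection was transient, so each library mixes cells that took up the plasmid with cells that did not, and more cells expressing a gene cannot be told apart from more RNA per cell.

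The deposited values were treated as log2 expression values from which the log2 of transcript length has been taken. Levels can then be set side by side between genes, and a difference between libraries is on a log2 scale. The authors' regularized log draws the libraries of a gene together, most of all for weakly expressed genes. A difference can therefore understate the log2 ratio of transcripts. GRHL2 itself lay between 6.61 and 7.25 in the 4 pcDNA3 libraries and between 16.22 and 16.87 in the 4 pGRHL2 libraries, a log2 fold change (log2 FC) of 9.48 ± 0.57 (SD of the 4 pair differences, limma adjusted p = 4.84e-08). The pcDNA3 values are close to the library medians of 6.71 to 6.73. By RT-qPCR, however, the study found little or no GRHL2 in its cell lines under basal conditions. The regularized log draws libraries toward the mean of the gene, which was 11.74 for GRHL2 over the 8 libraries. Its part in the pcDNA3 values was not tested. The libraries were compared within replicate numbers, because for every gene the mean of the pcDNA3 and pGRHL2 libraries of one number was the same for all 4 numbers. In such a table the libraries of a pair lie at equal distances above and below the gene's mean, both groups have the same SD, and the groups do not overlap exactly when all 4 pair differences have one sign. The study describes the replicates as independent biological ones, and the labels do not say how they were kept apart. In the 10 hepatocyte markers examined, the mean level of the list was 10.62 to 10.80 in the pcDNA3 libraries and 10.73 to 10.91 in the pGRHL2 libraries, with ALB, serum albumin, at a mean of 16.88.

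Among the 8 markers, only PROM1 passed the adjusted threshold of 0.05 over all genes, with a higher level in pGRHL2 libraries. That is 1 of 8 called higher, where 1.69% of all genes were, and 0 of 8 called lower, where 0.501% of all genes were. Without adjustment, limma gave p under 0.05 to 3 markers that were higher (PROM1, CD24 and ANXA4; 9.17% of all genes) and to 1 that was lower (BICC1; 6.78% of all genes). The groups did not overlap for 4 markers that were higher in pGRHL2 (CD24, PROM1, ANXA4 and MUC1; 13.4% of all genes) and for 1 that was lower (BICC1; 10.5% of all genes). The log2 FC was above 0 for 7 of the 8 markers, as it was for 9042 of the 17561 genes. The median log2 FC of the markers was 0.083 and that of all genes 0.0017. The differences were small: the median of their absolute values was 0.12 for the markers and 0.040 for all genes. Of all genes, 4.28% had an absolute log2 FC of at least 0.2. The all-gene median depended on level. It was 0.014 at means under 0, 0.021 from 0 to 5, 0.062 from 5 to 10 and 0.054 at 10 or more. EPCAM, SPP1, ANXA4, CD24 and BICC1 have means of at least 5.

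**Figure D1:**
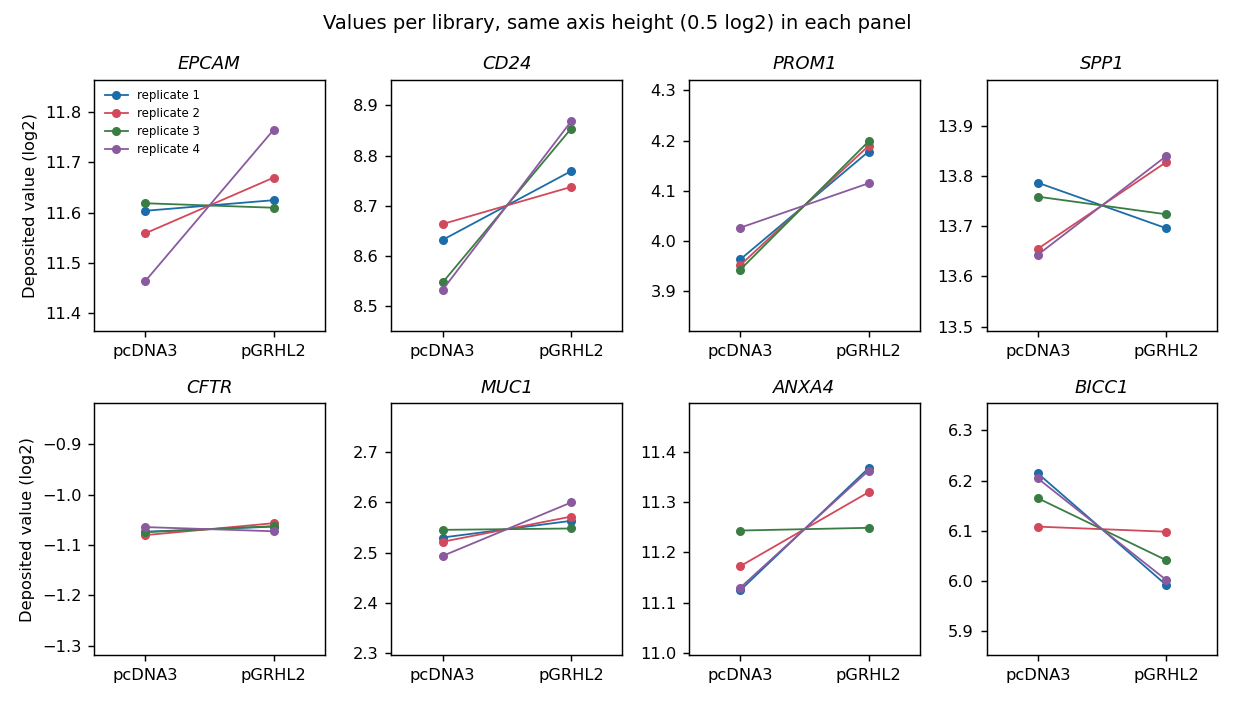
Deposited log2 value of each marker in each library, with lines joining libraries of the same replicate number and an axis 0.5 log2 units high in every panel. All 4 lines rise for CD24, PROM1, ANXA4 and MUC1, all 4 fall for BICC1, and the lines of EPCAM, SPP1 and CFTR run in both directions.

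The surface glycoproteins come first. PROM1, prominin 1 or CD133, spans the membrane of microvilli and other protrusions and is used to isolate progenitor cells. It stood at 3.96, 3.95, 3.94 and 4.03 in pcDNA3 replicates 1 to 4 and at 4.18, 4.19, 4.20 and 4.12 in the pGRHL2 replicates. Every pGRHL2 library lay above every pcDNA3 library, and the pair of replicate 4 was the closest, 0.088 apart against 0.21, 0.24 and 0.25 in the others. The log2 FC of PROM1 was 0.20 ± 0.075 (SD, n = 4 pairs; SE 0.036; 95% confidence interval 0.12 to 0.28; limma adjusted p = 0.0308), a level 14.8% higher. Its call was lost without replicate 1, 2 or 3 (adjusted p of 0.151, 0.131 and 0.121) but not without replicate 4 (0.0342), and it was lost when limma did not let the variance follow the expression level (0.114). PROM1 was weakly expressed, with 32.3% of genes at or below its mean level, so the regularized log may understate its difference and the 14.8%.

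CD24, a small and heavily glycosylated protein anchored in the membrane by a lipid, had the highest log2 FC of the 8 markers without passing the adjusted threshold. Its values were 8.63, 8.66, 8.55 and 8.53 in the pcDNA3 libraries and 8.77, 8.74, 8.85 and 8.87 in the pGRHL2 libraries. The groups did not overlap, and the pairs of replicates 3 and 4 were much further apart (0.31 and 0.33) than those of replicates 1 and 2 (0.14 and 0.074). Its log2 FC reached 0.21 ± 0.13 (SD over 4 pairs; 95% confidence interval 0.064 to 0.36) with a limma adjusted p of 0.146. CD24 has a near copy: CD24P4 on chromosome Y matches 99.8% of the CD24 transcript at 98.7% identity. The study counted reads above a minimum alignment quality, so CD24 reads that fit both places equally well may have been left out. CD24P4 had a row of its own in the table, between 3.86 and 3.91 in all 8 libraries, with a log2 FC of -0.022 ± 0.027.

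EPCAM is the adhesion glycoprotein of most simple epithelia and, in liver, of duct and progenitor cells. It was 11.60, 11.56, 11.62 and 11.46 in the pcDNA3 libraries and 11.62, 11.67, 11.61 and 11.76 in the pGRHL2 libraries. The groups overlapped, since replicate 3 was slightly lower with pGRHL2, and replicate 4 held most of the difference (0.30). Its log2 FC of 0.11 ± 0.14 was smaller than the spread between pairs (95% confidence interval -0.033 to 0.24; limma adjusted p = 0.453). Without replicate 4 it was 0.041.

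Of 9 listed relatives and partners of these glycoproteins 5 were tested, and 1 of them, PROM2, was called higher and none lower. PROM2, prominin 2, is the close relative of PROM1 found in epithelial membrane protrusions. It was weakly expressed, at a mean of 1.89, and its 4 pair differences were even at 0.17, 0.16, 0.12 and 0.13. The log2 FC of PROM2 was 0.14 ± 0.027 (SD, n = 4 pairs; limma adjusted p = 0.00796). The call was lost without replicate 1 (0.0546) and when the variance did not follow the level (0.103). CD9, a tetraspanin of the cell surface and the most highly expressed of these genes at a mean of 10.12, had a log2 FC of 0.21 ± 0.28 (adjusted p = 0.326), with pair 4 alone at 0.59. The median log2 FC of the 5 relatives was -0.013.

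PROM1 and PROM2 were the genes called among the markers and their relatives, so the DNA just before a transcription start of each is shown, with every CG dinucleotide in capitals. PROM1 lies at chr4:15963076-16084378 on the minus strand of hg38 and PROM2 at chr2:95274449-95291308 on the plus strand. The sequences come from RefSeq promoter windows of GRCh38.p14 and hold no annotated exon of GENCODE 44. That of PROM2 is taken up to the start, and that of PROM1 leaves out 5 annotated exon bases at its ends. PROM1 has several starts, and the stretch shown lies between alternative first exons.
PROM1, chr4:16083733-16083977, minus strand: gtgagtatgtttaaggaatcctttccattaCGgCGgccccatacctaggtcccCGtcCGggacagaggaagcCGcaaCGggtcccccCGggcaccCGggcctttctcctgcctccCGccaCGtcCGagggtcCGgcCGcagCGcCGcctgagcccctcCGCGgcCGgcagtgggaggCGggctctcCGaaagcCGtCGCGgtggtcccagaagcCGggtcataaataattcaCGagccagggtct
PROM2, chr2:95274199-95274448, plus strand: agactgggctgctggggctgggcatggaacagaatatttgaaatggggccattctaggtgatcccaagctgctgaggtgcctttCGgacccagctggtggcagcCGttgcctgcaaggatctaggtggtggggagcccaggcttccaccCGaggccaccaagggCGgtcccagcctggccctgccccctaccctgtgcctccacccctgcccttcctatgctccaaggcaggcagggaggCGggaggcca
The PROM1 stretch holds 25 CG dinucleotides in 245 bases and the PROM2 stretch 5 in 250 bases, at a GC content of 67.3% and 64.8%. Of the PROM1 stretches with little or no annotated exon, the one with the most CG dinucleotides is shown. Another 300-base window of PROM1, at chr4:16076069-16076368, holds 6 CG dinucleotides at a GC content of 56.3%. The whole window of PROM2 also holds 6, so the contrast in CG density depends on the start chosen.

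The grainyhead core motif, AACC, any base and then GTT, was searched on either strand of every RefSeq window, 250 bases before to 50 bases after a start. It was found in 606 of 35116 windows (1.73%), in 0 of the 13 windows of the 6 markers that have one (CD24, PROM1, SPP1, CFTR, MUC1 and ANXA4) and not in the window of PROM2. These letters are thus not in these windows, which says nothing about binding elsewhere. The GC content of the markers' windows ran from 47.7% in SPP1 to 78.0% in ANXA4, around a median of 58.7% over all windows. Their CG dinucleotides numbered from 6 to 44, around a median of 14.

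SPP1 encodes osteopontin, a secreted phosphoglycoprotein that binds integrins and CD44 and is abundant in bile duct cells and in liver tumours. It was the most highly expressed marker, at 13.79, 13.66, 13.76 and 13.64 in the pcDNA3 libraries and 13.70, 13.83, 13.72 and 13.84 in the pGRHL2 libraries. The groups overlapped, and the pairs split evenly: replicates 2 and 4 were higher with pGRHL2 (by 0.17 and 0.20), and replicates 1 and 3 lower (differences of -0.090 and -0.035). The log2 FC of SPP1 was 0.061 ± 0.14 (95% confidence interval -0.061 to 0.18; limma adjusted p = 0.652). It was 0.11 without replicate 1, 0.024 without replicate 2, 0.093 without replicate 3 and 0.016 without replicate 4. Of 13 listed integrin receptor subunits and relatives of osteopontin 6 were tested and limma called 0, with 1 higher and 0 lower at an unadjusted p under 0.05. That one was ITGA5, the alpha subunit of a fibronectin receptor, with a log2 FC of 0.12 ± 0.060 (adjusted p = 0.155). ITGB1, the beta subunit shared by many of these receptors, was the most highly expressed at a mean of 12.43 and had a log2 FC of 0.024 ± 0.15 (adjusted p = 0.908).

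CFTR, the apical chloride channel whose loss causes cystic fibrosis, was near the bottom of the table, with 0.774% of genes at or below its level. Its values were -1.07, -1.08, -1.07 and -1.06 in the pcDNA3 libraries and -1.06, -1.06, -1.06 and -1.07 in the pGRHL2 libraries. The groups overlapped within a span much narrower than that of the other markers. Its log2 FC was 0.0094 ± 0.013 (95% confidence interval -0.0083 to 0.027; limma adjusted p = 0.628), with 0.0046 without replicate 2 and 0.015 without replicate 4. The authors' regularized log transformation draws the libraries of weakly expressed genes together, so a narrow span at this level does not show an equal number of transcripts. Of 18 other listed genes of ductal chloride, bicarbonate, bile acid and water transport 12 were tested and limma called 0, with 1 higher and 1 lower at an unadjusted p under 0.05. The lower one was AQP3, a channel for water and glycerol, with pair differences of -0.40, -0.83, -0.17 and -0.25 and a log2 FC of -0.42 ± 0.29 (adjusted p = 0.0802). AQP3 was lower in all 4 pairs, and the size of the difference varied widely between them. The higher one was SLC26A6, an exchanger of chloride and bicarbonate, with a log2 FC of 0.16 ± 0.055 (adjusted p = 0.193). NHERF1, a scaffold that binds the tail of CFTR, was the most highly expressed at a mean of 11.44 and had a log2 FC of 0.013 ± 0.067 (adjusted p = 0.943).

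MUC1 is a transmembrane mucin of apical epithelial surfaces. Its values were 2.53, 2.52, 2.55 and 2.49 in the pcDNA3 libraries and 2.56, 2.57, 2.55 and 2.60 in the pGRHL2 libraries. The groups did not overlap, but the libraries of replicate 3 were only 0.0027 apart. The log2 FC of MUC1 was 0.048 ± 0.043 (95% confidence interval -0.0054 to 0.10; limma adjusted p = 0.369), and 0.029 without replicate 4. Of 13 other listed mucins 6 were tested and limma called 0, with 2 higher and 3 lower at an unadjusted p under 0.05. MUC13, also a transmembrane mucin and the most highly expressed of the 6 at a mean of 4.15, was lower in all 4 pairs by similar amounts, -0.15, -0.13, -0.14 and -0.10. Its log2 FC was -0.13 ± 0.020 (adjusted p = 0.0627), in the opposite direction to that of MUC1. The others under that p were the higher MUC2 and MUC5B and the lower MUC3A and MUC17, all with an absolute log2 FC of at most 0.038.

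ANXA4, annexin A4, binds phospholipids in the presence of calcium and is abundant in secretory epithelia and ducts. It was 11.12, 11.17, 11.24 and 11.13 in the pcDNA3 libraries and 11.37, 11.32, 11.25 and 11.36 in the pGRHL2 libraries. The groups did not overlap, although replicate 3 differed by 0.0055 and the other pairs by 0.15 to 0.24. The log2 FC was 0.16 ± 0.11 (95% confidence interval 0.027 to 0.29; limma adjusted p = 0.219), a level 11.5% higher. Of 11 other annexins listed 9 were tested and limma called 0, with 1 higher and 0 lower at an unadjusted p under 0.05. That one was ANXA9, higher in all 4 pairs with a log2 FC of 0.26 ± 0.14 (adjusted p = 0.0853). ANXA5, which binds phosphatidylserine and was the most highly expressed at a mean of 13.37, had a log2 FC of 0.0079 ± 0.18 (adjusted p = 0.975).

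BICC1 binds messenger RNAs and recruits the CCR4-NOT deadenylase complex, and animals that lack it develop cysts of kidney and bile ducts. It was the marker with a negative log2 FC, at 6.21, 6.11, 6.16 and 6.20 in the pcDNA3 libraries and 5.99, 6.10, 6.04 and 6.0 in the pGRHL2 libraries. The groups did not overlap, with pGRHL2 libraries lower by as much as 0.22 in replicate 1 and by as little as 0.010 in replicate 2. The log2 FC was -0.14 ± 0.096 (95% confidence interval -0.25 to -0.023; limma adjusted p = 0.222). Of 10 listed partners of BICC1 and genes of polycystic disease 9 were tested and limma called 0, with 1 higher and 1 lower at an unadjusted p under 0.05. The lower one was CNOT3, a subunit of the CCR4-NOT complex, at a log2 FC of -0.32 ± 0.22 (adjusted p = 0.0854). The higher one was ANKS6, an ankyrin-repeat partner of BICC1, at 0.18 ± 0.030 (adjusted p = 0.0936). CNOT1, the scaffold of that complex and the most highly expressed of the 9 at a mean of 11.61, had a log2 FC of -0.075 ± 0.27 (adjusted p = 0.770).

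**Figure D2:**
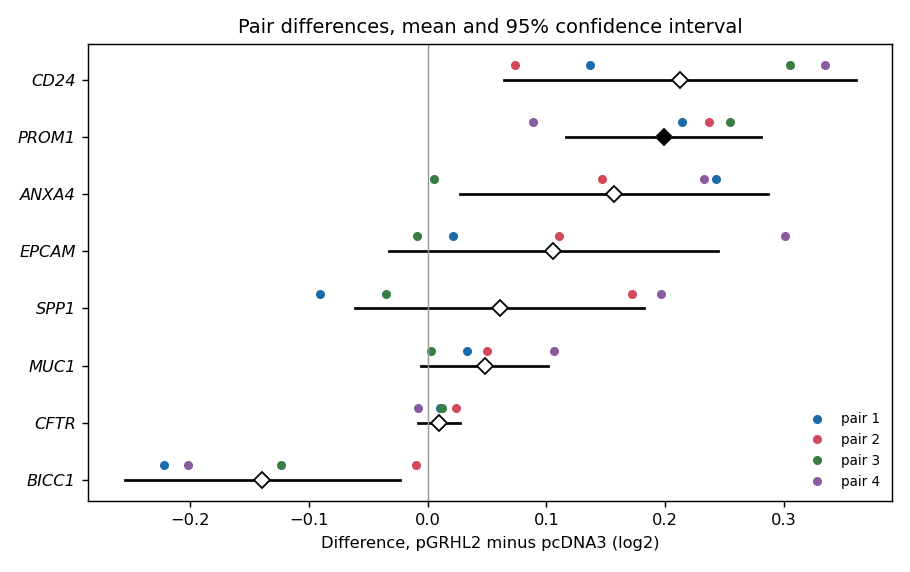
Difference between the pGRHL2 and pcDNA3 library of each replicate number (points), their mean (diamonds, filled where limma's adjusted p is under 0.05) and the 95% confidence interval of the log2 FC (lines), by marker. The interval lies above 0 for CD24, PROM1 and ANXA4 and below 0 for BICC1, and PROM1 has the filled diamond.

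Read by gene, the levels followed the order SPP1, EPCAM, ANXA4, CD24, BICC1, PROM1, MUC1 and CFTR from highest to lowest, per transcript length. Neighbours in this order never overlapped over the 8 libraries, and the closest were EPCAM and ANXA4, whose means were 0.37 log2 units apart. The table lacks the variation between replicate means, so this does not show that the order holds from replicate to replicate. SPP1, EPCAM and ANXA4 were among the most highly expressed genes of these cells, with 99.7%, 97.2% and 95.8% of genes at or below their level. The spread between pairs changed with the level: its median SD was 0.022 in the 650 genes with a mean under 0, 0.040 in 6053 genes from 0 to 5, 0.12 in 8685 genes from 5 to 10, and 0.11 in 2173 genes at 10 or more. The share of genes called was 2%, 3.60%, 1.57% and 0.828% in these ranges. PROM1, with MUC1, lies in the range with the highest share, where a difference of 0.20 is large against the usual spread, and CD24 in the range with the widest spread. The part that level has in which marker passed the test was not tested.

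**Figure D3:**
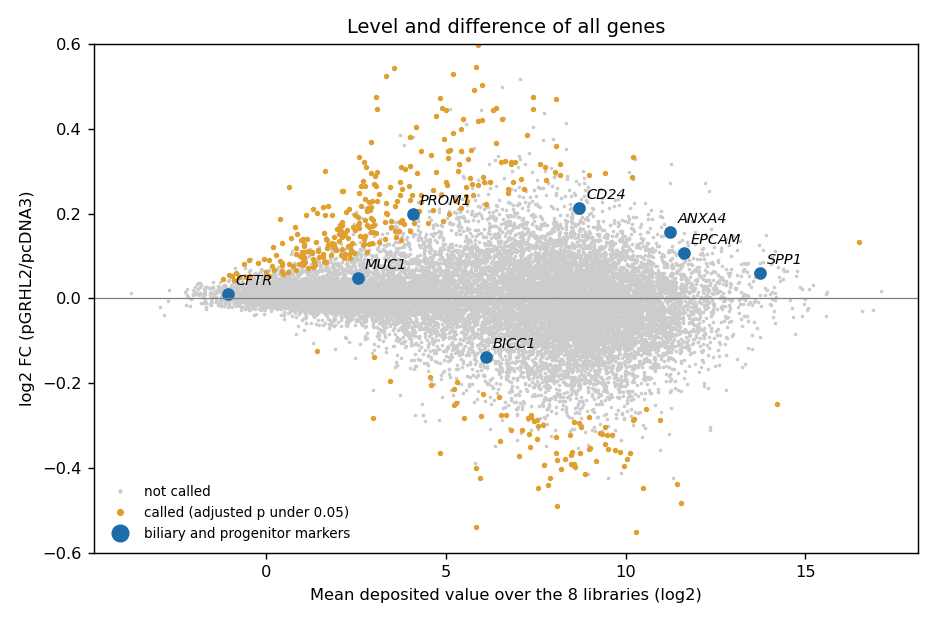
Mean deposited log2 value over the 8 libraries against log2 FC for 17539 of the 17561 genes (the other 22 lie outside the axis of 0.6 either way), with called genes in orange and the 8 markers in blue. PROM1 at a mean of 4.07 lies among called genes of its level, whereas CD24, ANXA4 and BICC1 lie among genes of similar level that were not called.

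Read by replicate number, the markers did not move alike in every pair. The level was higher with pGRHL2 for 6, 7, 5 and 6 of the 8 markers in pairs 1 to 4, and the median difference was 0.027, 0.092, 0.0041 and 0.15. Pair 4 was the one with the greatest difference for 4 markers, EPCAM, SPP1, CD24 and MUC1, and the least for PROM1 and CFTR. Over all genes the median difference of each pair was between 0.00078 and 0.0059. The median log2 FC of the markers was 0.035 without replicate 4 and 0.12 without replicate 1. With 4 pairs, an exact two-sided sign-flip test of a single gene cannot go below p = 0.125, the value it gave for PROM1, CD24, ANXA4, MUC1 and BICC1.

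The 7 lists of other genes, the 6 given above and one of further duct and progenitor markers, held 89 genes, of which 58 were tested. PROM2 was the gene called higher among these 58 and none was called lower by limma, with 8 higher and 6 lower at an unadjusted p under 0.05. Their median log2 FC was 0.019. Of the 15 further duct and progenitor markers 11 were tested and limma called 0, with 1 higher and 1 lower at an unadjusted p under 0.05. The one with the lowest p was KRT7, a keratin of duct cells, which was higher in all 4 pairs at 0.20, 0.068, 0.34 and 0.15, a log2 FC of 0.19 ± 0.12 (adjusted p = 0.0970). KRT19, a keratin of ducts and progenitors, was the most highly expressed at a mean of 13.90 and had a log2 FC of 0.15 ± 0.35 (adjusted p = 0.569), with pair differences from -0.34 to 0.48. KRT7 was thus higher in all 4 pairs and KRT19 in 3, and neither passed the test. The study names KRT7 among the direct targets of GRHL2 to which its RNA-seq, ChIP-seq and RT-qPCR data point. Its RNA-seq test was DESeq2 on counts.

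Genes of other cell types were examined beside these. Of the 10 hepatocyte markers limma called 0, with 1 higher and 0 lower at an unadjusted p under 0.05 (FGB, fibrinogen beta, 0.28 ± 0.33, adjusted p = 0.249) and a median log2 FC of 0.0030. Of 10 listed markers of leukocytes, endothelium and fibroblasts 6 were tested and limma called 0, with 1 higher and 0 lower at an unadjusted p under 0.05. Their mean level was 4.24 to 4.30 in the pcDNA3 libraries and 4.27 to 4.33 in the pGRHL2 libraries. The lowest of these were CD163 and VWF, at means of -0.66 and 1.91. The other tested ones were not near the bottom of the table, with means from 5.08 (PDGFRB) to 8.14 (ACTA2). COL1A1 had the highest log2 FC, 0.20 ± 0.10 (adjusted p = 0.0838). PTPRC, CD68, COL3A1 and DCN were not analysed here. The genes named in these lists of other cell types were singled out after their values were seen, as were SLC26A6, MUC2, MUC5B, MUC3A, MUC17 and ANKS6 above.

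**Figure D4:**
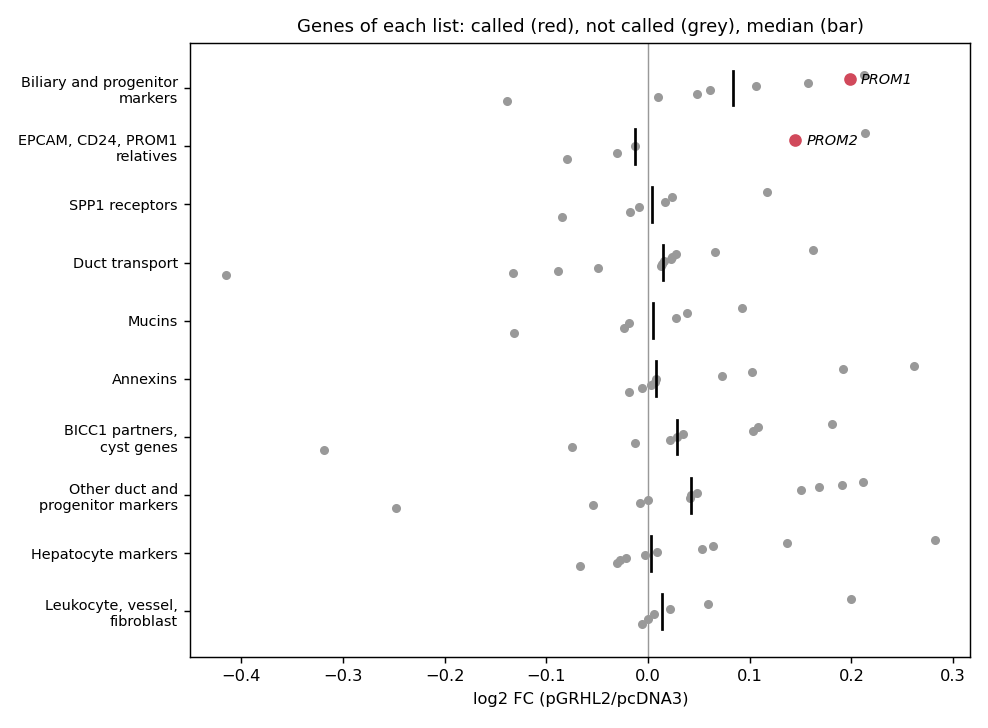
log2 FC of each tested gene, by list, with called genes in red, the others in grey and the median of each list as a bar. PROM1 and PROM2 are the red points, and the median lies at 0.083 for the 8 markers and between -0.013 and 0.042 for the other lists.

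The genes whose 4 pair differences were most like those of CD24, the marker with the highest absolute log2 FC, were sought among the 10857 genes with a mean of at least 5. Likeness was the Euclidean distance between the 4 differences, in log2 units. The nearest was TMEM40 at a distance of 0.091, with differences of 0.20, 0.12, 0.32 and 0.28, followed by SLC22A3 at 0.092 and ZNF385A at 0.11. They were picked for this likeness, so their pattern over the pairs is a description of the choice.

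The choice of block changed the markers' calls most. Without the replicate number in the fit, limma called 3 markers higher, PROM1, CD24 (adjusted p = 0.0106) and ANXA4 (0.0202), where 10.4% of all genes were called higher, and 1 lower, BICC1 (0.0198), where 8.13% of all genes were. That fit counts 6 residual degrees of freedom rather than 3, although the replicate means had already been taken out of the table. With the block, the adjusted p of CD24 ranged from 0.129 to 0.184 over the other settings with all replicates. That of ANXA4 ranged from 0.213 to 0.244 and that of BICC1 from 0.211 to 0.282.

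**Figure D5:**
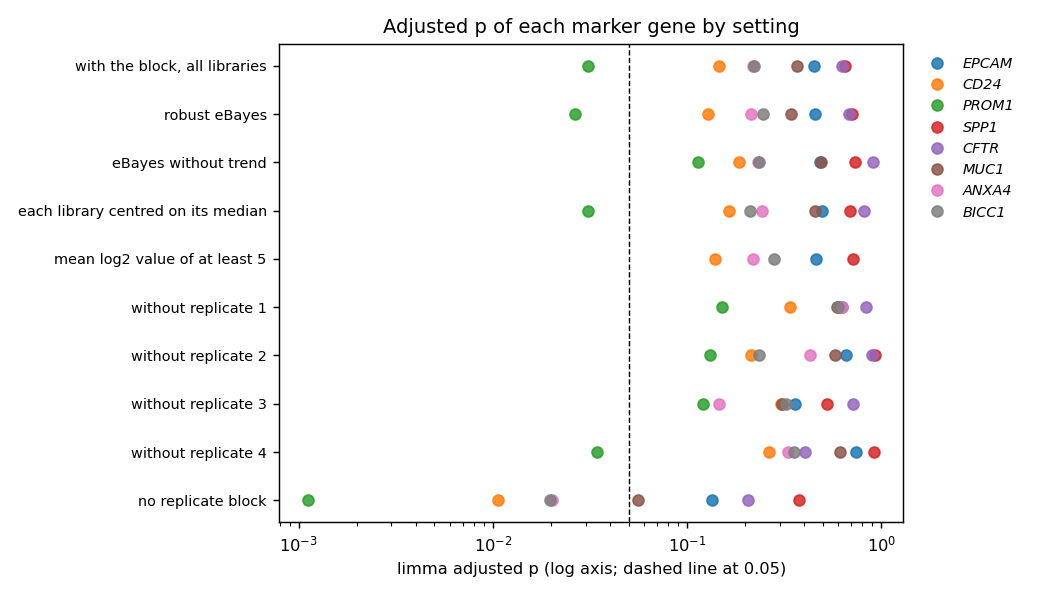
limma adjusted p of each marker, on a log axis, under the fit with the replicate block and under each alternative, with a dashed line at 0.05. PROM1 is left of the line in 5 of its 9 settings and has no point under the minimum mean of 5; CD24, ANXA4 and BICC1 are left of it only without the block.

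In hg38 with GENCODE 44 the members lie apart from each other, except that PROM1 and SPP1 share chromosome 4 and EPCAM and ANXA4 chromosome 2. EPCAM is at chr2:47345158-47387601 on the plus strand with 9 exons in its canonical transcript, and ANXA4 at chr2:69644425-69827112 on the plus strand with 13. CD24 is at chr6:106969831-106975627 on the minus strand with 2 exons, and SPP1 at chr4:87975667-87983532 on the plus strand with 7. CFTR is at chr7:117287120-117715971 on the plus strand with 27 exons, and MUC1 at chr1:155185824-155192916 on the minus strand with 8. BICC1 is at chr10:58512872-58831435 on the plus strand with 21 exons, and PROM1 has 28. Reads were counted without regard to strand, and at most 2.70% of the exon bases of a marker (SPP1) are shared with another annotated gene.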

How the data were processed

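RNA sequencing of 8 HepG2 libraries, 4 transfected with pcDNA3 and 4 with pGRHL2, was analysed from the table of 17561 genes deposited by the authors. By the study's methods, paired-end reads were aligned to hg38 with HISAT2, counted over exons without strand with HTSeq, filtered for low cumulated counts, transformed with the regularized log of DESeq2 and divided by mean transcript length. The submitters' processing notes name HISAT2 2.2.1, HTSeq 0.9.1 and DESeq2 1.40.2, and the methods name other versions of HISAT2 and DESeq2. The deposited values are log2 values from -3.76 to 17.27, although the table is named for FPKM. As worded, the methods divide the regularized log values by length, and this was checked on the values of the 17537 genes with a GENCODE 44 length. With the log2 of length in kb added back, the 1st percentile of the gene means lay between 0.27 and 0.48 in each of 10 equal groups of genes by length, whereas with the length multiplied back it ran down to -12.3. Unlike the wording of the methods, length was therefore treated as subtracted on the log2 scale, which leaves differences between libraries as they were. No read counts entered the work, which leaves the depth behind each value unknown, and no counting interval is given.

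Groups came from the labels. For every gene the means of same-numbered libraries were identical (largest spread 1.5e-13), so the replicate number was a block in the main fit. This identity also makes a check of pairing by correlated deviations void. Each gene was tested in limma (3.58.1, R 4.3.3) with lmFit and eBayes with a mean-variance trend, two-sided, with Benjamini-Hochberg adjustment over all genes and a threshold of 0.05. Errors are the SD of the 4 pair differences. Copies of the transcripts in hg38 were sought with minimap2 at 95% identity or more over at least 10% of the transcript. NHERF1 was read under its older symbol SLC9A3R1.

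The genes and lists were chosen with earlier results of these data known. Named genes were the markers, GRHL2 and, from each list, the genes called or else the one of lowest p, plus the most highly expressed gene. The alternatives were no block, no trend, a robust fit, centring of each library, a minimum mean of 5, a threshold of 0.01 and leaving out each replicate. The values of 1 gene in the list of further duct and progenitor markers are not reported here.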

Additional observations from a re-analysis of the deposited data

How the results depend on the processing

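The replicate block decided most counts: without it 1821 genes were called higher and 1427 lower, in place of 297 and 88, with 3 markers higher and 1 lower, and 9 and 7 genes of the 7 other lists. Whether same-numbered libraries share a culture or day is not given in the labels. Without the mean-variance trend 4 genes were called higher and 2 lower, and no marker (0) and no gene of the other lists (0) was called higher. With a minimum mean of 5, 63 genes were called higher, with 0 markers and 0 genes of the other lists, since PROM1 and PROM2 lie under that minimum. At a threshold of 0.01, 77 genes were called higher and 10 lower, with 0 markers.

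Leaving out 1 replicate gave 79 to 156 genes called higher and 8 to 68 lower, and 0 to 1 in the markers and 0 to 1 in the other lists; 3 pairs remain in each such fit. The median log2 FC of the markers stayed positive under every alternative run, from 0.035 without replicate 4 to 0.12 without replicate 1.

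For the 8 markers and PROM2, 41 values under the other settings kept their direction, 36 of them with the same call, 2 losing it (PROM1 and PROM2 without the trend) and 3 gaining it (CD24, ANXA4 and BICC1 without the block). Of 36 values with a replicate left out 32 kept call and direction and 4 lost the call. Beyond these the causes of the changes were not tested. Differences of weakly expressed genes are understated by the regularized log.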
